A study of Mus musculus with 6 samples.

Results

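Transcript levels of 9 chemokine genes were followed in fetal thymic stroma with and without Jmjd6 and with and without RANKL. The genes are Ccl19, Ccl17, Ccl22, Ccl5, Ccl2, Ccl7, Cxcl9, Cxcl16 and Xcl1, and they were chosen by symbol out of 22301 gene symbols. The choice was made with earlier results of these data known, so the comparisons with all genes below are descriptive. They took 10 of the 22513 entries of the table, because Ccl19 had a second entry on an unplaced chromosome 4 sequence that was listed at 0 in all 6 libraries. The stroma came from fetal thymus lobes of the C57BL/6 strain, kept as organ cultures (FTOC) with 2-deoxyguanosine (2-DG), a drug that removes most haematopoietic cells. RANKL is a TNF family ligand that drives the maturation of medullary thymic epithelial cells (mTECs), and Jmjd6 is an oxygenase that hydroxylates splicing regulators. There was 1 library of unstimulated WT stroma and 1 of unstimulated Jmjd6-/- stroma. After 4 days with RANKL there were 2 libraries of WT and 2 of Jmjd6-/- stroma, and every group had 2-DG for 4 days. Jmjd6-/- is a loss of the gene in all cells of the lobe, and whole stroma was sequenced, so fewer cells of a type and less RNA per cell cannot be told apart. The labels call the repeated libraries technical duplicates, so the p-values below may measure technical spread only.

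Chemokines are small secreted proteins that guide migrating cells through G protein-coupled receptors. In the thymus, chemokines made by the medulla draw positively selected thymocytes out of the cortex, and others recruit dendritic cells, monocytes and natural killer cells. Ccl19 binds Ccr7, and Ccl17 and Ccl22 share the receptor Ccr4. Ccl5 is an inflammatory chemokine, the monocyte chemokines Ccl2 and Ccl7 bind Ccr2, Cxcl9 is an interferon-inducible ligand of Cxcr3, Cxcl16 is the membrane-bound ligand of Cxcr6, and Xcl1 attracts Xcr1-bearing dendritic cells.

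Chemokine families are named for the cysteines near the start of the mature protein, and the coding sequence around this signature is shown for each gene to place it in its family. Each line holds 30 coding bases, 5′ to 3′ on the coding strand, read from GENCODE transcripts of the mm10 build, with the signature cysteine codons in capitals.
Ccl19: gatgcggaagacTGCTGCctgtctgtgacc
Ccl17: gtaggccgagagTGCTGCctggattacttc
Ccl22: gaagacagtatcTGCTGCcaggactacatc
Ccl5: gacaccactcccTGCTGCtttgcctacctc
Ccl2: gccccactcaccTGCTGCtactcattcacc
Ccl7: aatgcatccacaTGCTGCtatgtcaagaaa
Cxcl9: aggaatgcacgaTGCtccTGCatcagcacc
Cxcl16: gtcgctggaagtTGTtctTGTgatcgtacc
Xcl1: gaagagagtagcTGTgtgaacttacaaacc
The CC chemokines have 2 adjacent cysteine codons, the CXC chemokines Cxcl9 and Cxcl16 have another codon between them, and Xcl1 has a single cysteine codon there. The stretch lies in exon 2 of the coding transcript of each of the 9 genes. It maps to chr4:42755248-42755277 for Ccl19, chr8:94811200-94811229 for Ccl17, chr8:94746922-94746951 for Ccl22, chr11:83529230-83529259 for Ccl5, chr11:82036494-82036523 for Ccl2, chr11:82046526-82046555 for Ccl7, chr5:92326833-92326862 for Cxcl9, chr11:70459118-70459147 for Cxcl16 and chr1:164932960-164932989 for Xcl1. The genes for Ccl19, Ccl5, Cxcl9, Cxcl16 and Xcl1 are on the minus strand and the others on the plus strand.

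The labels were checked first. Jmjd6 was at 26.3 FPKM in unstimulated WT and at 25.9 and 32.5 in WT with RANKL, against 1.32 in unstimulated Jmjd6-/- and 1.96 and 1.78 in Jmjd6-/- with RANKL. FPKM are fragment counts scaled by transcript length and by library depth. Aire, the mTEC regulator that RANKL induces, was at 0.142 and 0.473 FPKM without RANKL and between 67.1 and 79.7 FPKM with it. The steps of low FPKM values gave rough depths of between 15300000 and 31700000 fragments per library. The 2 WT libraries with RANKL lay further apart than the 2 Jmjd6-/- libraries, with a median absolute log2 difference of 0.28 against 0.08 over 12587 genes.

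The first question was which of the chemokine genes changed with RANKL. Over both genotypes, 8 of the 9 genes were higher with RANKL and 0 were lower at an adjusted p under 0.05 (limma with Benjamini-Hochberg adjustment over 15894 genes), against a background of 10.5% of all genes higher and 4.11% lower. The median log2 change was 2.11 for the 9 genes and -0.02 for all genes tested. Changes are on the log2(FPKM + 0.1) scale, which understates those of low genes. In 6 of the 9 genes all 4 RANKL libraries lay above both unstimulated libraries, as for 18.9% of all genes. With no filter on low values, 4 of the 9 genes passed.

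Cxcl9 had the highest change among the 9 genes. Without RANKL it was at 0.136 FPKM in WT and 0.0653 FPKM in Jmjd6-/- stroma, and with RANKL at 8.58 and 7.70 FPKM in WT and 3.21 and 2.17 FPKM in Jmjd6-/- stroma. All 4 RANKL libraries were far above the unstimulated pair, and under RANKL the Jmjd6-/- values were the lower ones. The log2 change with RANKL over both genotypes was 4.59 (SE 0.30, limma adjusted p = 0.000224).

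Ccl22, made by mTECs and dendritic cells, came next. Without RANKL its level was 0.352 FPKM in WT and 0.0759 FPKM in Jmjd6-/- stroma, and with RANKL 4.08 and 3.19 FPKM in WT and 2.46 and 3.80 FPKM in Jmjd6-/- stroma. The libraries of the 2 genotypes overlapped under RANKL, while all 4 lay above the unstimulated ones. The log2 change was 3.60 (limma adjusted p = 0.000867).

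Ccl19, a ligand that leads Ccr7-bearing thymocytes to the medulla, had its highest values in WT stroma with RANKL. It was at 2.94 FPKM in unstimulated WT and at 32.2 and 47.3 FPKM with RANKL, and at 1.89 FPKM in unstimulated Jmjd6-/- stroma and 7.33 and 4.73 FPKM with RANKL. Every RANKL library lay above both unstimulated libraries, and the Jmjd6-/- libraries lay well below the WT libraries. The log2 change over both genotypes was 2.64 (SE 0.46, limma adjusted p = 0.0120).

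The lowest of the called genes in level was Ccl17, at 0.184 FPKM in unstimulated WT, 0.889 and 1.03 FPKM in WT with RANKL, 0 in unstimulated Jmjd6-/- and 0.208 and 0.142 FPKM in Jmjd6-/- with RANKL. The second Jmjd6-/- RANKL library lay below unstimulated WT. These values stand for an estimated 2 fragments in unstimulated WT and 9 and 6 in WT with RANKL. In Jmjd6-/- stroma they stand for 0, 2 and 1 fragments. The log2 change was 1.67 (SE 0.29, limma adjusted p = 0.0116), and the ratio of WT with RANKL to unstimulated WT was 5.45 with a 95% interval of 1.27 to 49.1 from counting error only. Without the first Jmjd6-/- RANKL library Ccl17 did not pass (limma adjusted p = 0.0551).

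Ccl5, which attracts T cells and monocytes, was at 5.14 FPKM in unstimulated WT, 17.5 and 38.9 FPKM in WT with RANKL, 4.08 FPKM in unstimulated Jmjd6-/- and 17.1 and 17.8 FPKM in Jmjd6-/- with RANKL. The second WT RANKL library stood apart, and the other 3 RANKL libraries were close to each other. The log2 change was 2.19 (limma adjusted p = 0.00416).

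The monocyte chemokines Ccl2 and Ccl7 are neighbours on chromosome 11, with 8260 bases between them, and both rose. Ccl7 was at 5.47 FPKM in unstimulated WT, 24.6 and 28.6 FPKM in WT with RANKL, 1.82 FPKM in unstimulated Jmjd6-/- and 8.39 and 6.58 FPKM in Jmjd6-/- with RANKL. Ccl2 was at 16.5 FPKM in unstimulated WT, 30.3 and 28.4 FPKM in WT with RANKL, 9.26 FPKM in unstimulated Jmjd6-/- and 16.1 and 11.9 FPKM in Jmjd6-/- with RANKL. For Ccl2 the Jmjd6-/- RANKL libraries did not exceed unstimulated WT, so its RANKL and unstimulated libraries overlapped across genotypes. The log2 change was 2.11 for Ccl7 (SE 0.15, limma adjusted p = 0.000322) and 0.70 for Ccl2 (SE 0.14, limma adjusted p = 0.0214). Without the first Jmjd6-/- RANKL library Ccl2 did not pass (limma adjusted p = 0.0676).

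Cxcl16 had a high starting level, with 14.6 FPKM in unstimulated WT, 23.4 and 31.1 FPKM in WT with RANKL, 13.2 FPKM in unstimulated Jmjd6-/- and 24.4 and 21.6 FPKM in Jmjd6-/- with RANKL. All 4 RANKL libraries lay above both unstimulated ones, by a log2 change of 0.84 (SE 0.13, limma adjusted p = 0.00853). Xcl1 was the gene that did not pass. It was at 0.0941 FPKM in unstimulated WT, 0.616 and 0.347 FPKM in WT with RANKL, 0 in unstimulated Jmjd6-/- and 0.107 and 0 FPKM in Jmjd6-/- with RANKL, or an estimated 1, 6, 2, 0, 1 and 0 fragments. Its log2 difference was 1.03 (SE 0.47, limma adjusted p = 0.193).

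**Figure D1:**
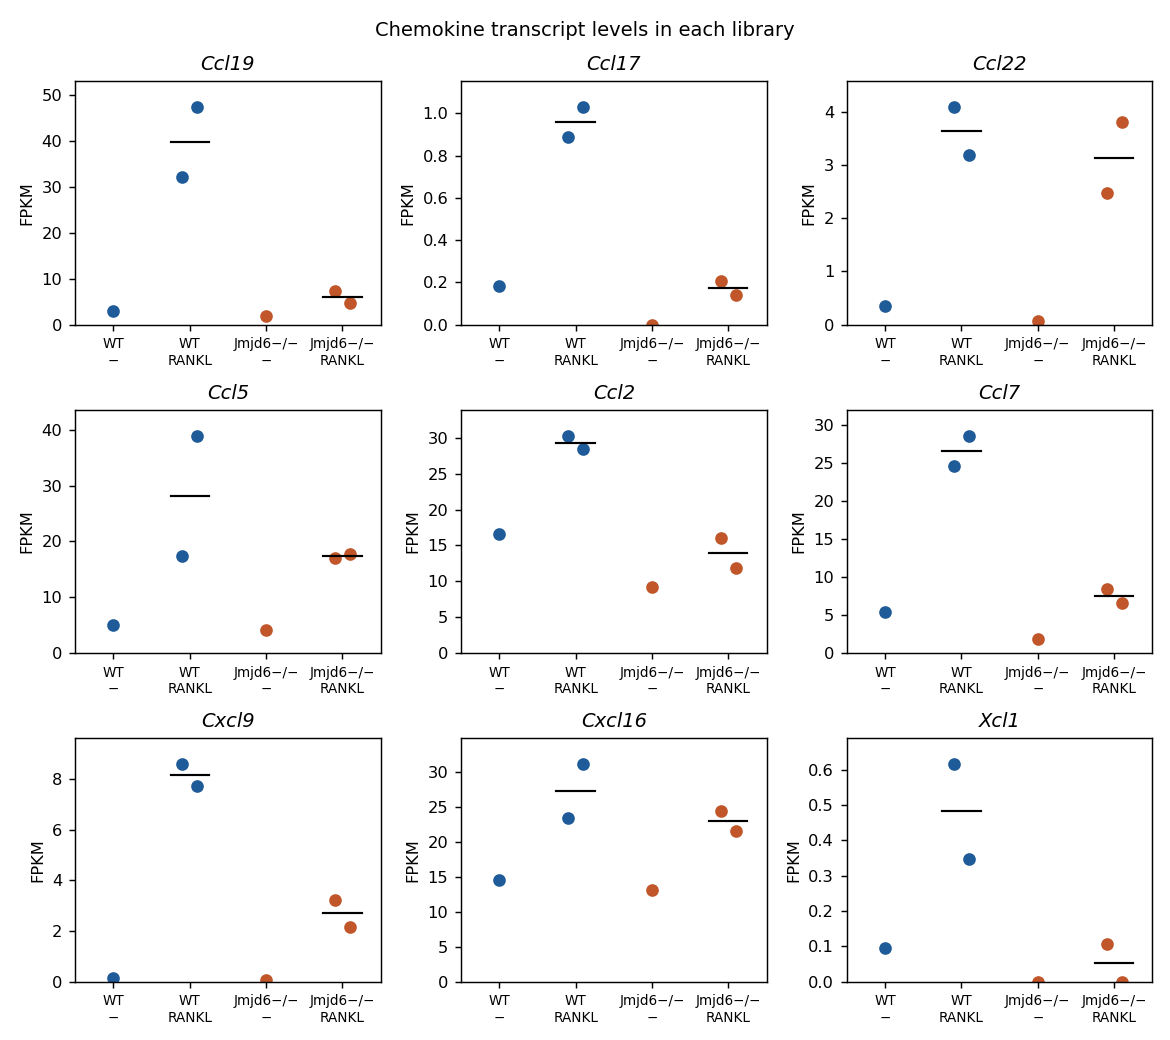
FPKM (vertical axes, linear from 0) of each of the 9 chemokine genes in each library, with WT in blue, Jmjd6-/- in orange, a dash for unstimulated stroma and horizontal bars for the mean of 2 libraries. For Ccl19, Ccl17, Ccl2, Ccl7, Cxcl9 and Xcl1 both Jmjd6-/- RANKL libraries sit below both WT RANKL libraries.

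The next question was whether RANKL acted on these genes within each genotype. In WT, 2 RANKL libraries were compared with a single unstimulated library, which was assumed to vary like the stimulated ones. There 5 of the 9 genes were higher, against a background of 6.05% higher and 0.56% lower, and in Jmjd6-/- stroma 3 of the 9 were higher, against a background of 3.75% higher and 0.346% lower. With no filter on low values 0 of the 9 passed in either genotype, and with genes at 0 in all libraries also left out 3 passed in WT and 1 in Jmjd6-/- stroma. All 9 genes were above their unstimulated level in both WT RANKL libraries, and 8 of 9 in both Jmjd6-/- RANKL libraries. The share of all genes with this order within a genotype was not counted. With a single unstimulated library, unchanged genes also often show it, so these counts only describe the 9 genes.

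Cxcl9, Ccl22 and Ccl7 passed the limma test in both genotypes. The log2 change of Cxcl9 was 5.12 in WT (adjusted p = 0.00196) and 4.05 in Jmjd6-/- stroma (adjusted p = 0.00443), that of Ccl22 was 3.04 (adjusted p = 0.0122) and 4.17 (adjusted p = 0.00594), and that of Ccl7 was 2.26 (adjusted p = 0.00650) and 1.97 (adjusted p = 0.0120). Ccl19 and Ccl5 passed in WT and not in Jmjd6-/- stroma. Ccl19 changed by 3.69 in WT (limma adjusted p = 0.00582), or 13.5-fold in mean FPKM, and its difference in Jmjd6-/- stroma was 1.59 (limma adjusted p = 0.0859), or 3.19-fold. Ccl5 changed by 2.32 in WT (limma adjusted p = 0.0459), and the value in Jmjd6-/- stroma was 2.07 (limma adjusted p = 0.0848). In Jmjd6-/- stroma Ccl19 passed without its second library or without the second WT library (limma adjusted p = 0.0361 and 0.0491), and Ccl5 passed without either WT library (limma adjusted p = 0.0110 and 0.00497). Cxcl16 also passed in both genotypes without either WT library. The WT call of Ccl5 was lost with a constant of 1 (limma adjusted p = 0.0629), a filter at a mean of 1 FPKM (0.0566), no trend (0.0889) or no filter (0.257), and it held in 7 of 12 alternatives.

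The difference between the 2 responses was tested itself. No gene of the 15894 passed (0 higher and 0 lower by limma), with 118 higher and 546 lower at an unadjusted p under 0.05. Ccl19 had the lowest value among the 9 genes, a log2 difference of -2.098 between the responses in Jmjd6-/- and WT stroma (SE 0.49, limma adjusted p = 0.779). The value was -1.07 for Cxcl9, with a 95% interval from -2.23 to 0.09, and 1.13 for Ccl22, with an interval from -0.16 to 2.43, and the 95% interval for Ccl7 ran from -1.07 to 0.49.

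**Figure D2:**
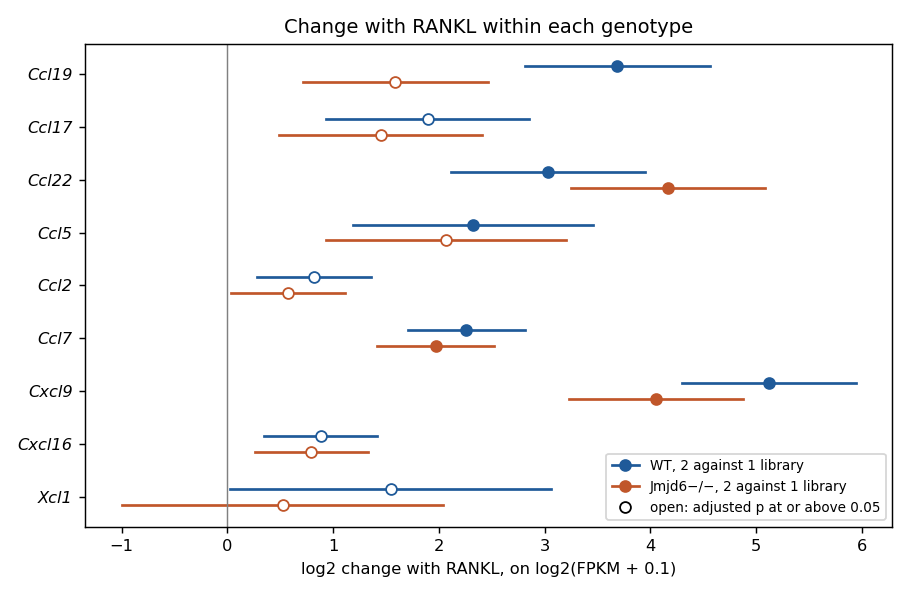
Change with RANKL on the log2(FPKM + 0.1) scale (horizontal axis) for each gene in WT (blue) and Jmjd6-/- (orange), with 95% limma intervals. Filled points passed an adjusted p of 0.05, and for Ccl19 the WT change of 3.69 and the Jmjd6-/- change of 1.59 lie furthest apart.

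Jmjd6-/- and WT stroma were then compared under RANKL, with 2 libraries each. Of the 9 genes, 3 were lower in Jmjd6-/- stroma and 0 were higher (limma adjusted p under 0.05), against a background of 1.82% lower and 0.516% higher. The median log2 difference was -1.58 for the 9 genes and 0.0131 for all genes tested. For 6 of the 9 genes the Jmjd6-/- pair lay entirely below the WT pair, as for 26.2% of all genes, and for 0 it lay entirely above, as for 24.5% of all genes. An exact two-sided permutation test of a single gene in 2 against 2 libraries cannot go below p = 0.333, so the calls rest on the spread shared across genes. With no filter on low values, 0 of the 9 genes passed.

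On the log2(FPKM + 0.1) scale Ccl19 had the lowest difference of the 9 genes. Its mean was 39.8 ± 10.7 FPKM (SD, n = 2) in WT and 6.03 ± 1.84 FPKM (SD, n = 2) in Jmjd6-/- stroma, a ratio of 6.60. The log2 difference was -2.71 (SE 0.28, limma adjusted p = 0.0280). Ccl17 was lower by a log2 difference of -1.95 (SE 0.31, limma adjusted p = 0.0492), and its ratio of WT to Jmjd6-/- had a counting interval of 1.53 to 29.1, from few fragments. Without the first or the second Jmjd6-/- library Ccl17 did not pass (limma adjusted p = 0.0995 and 0.214). Ccl7 was lower by -1.82 (SE 0.18, limma adjusted p = 0.0279), and without the second Jmjd6-/- library its adjusted p was 0.0540.

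Ccl2 and Cxcl9 came close to the threshold. Ccl2 averaged 29.3 ± 1.36 FPKM (SD, n = 2) in WT and 14.0 ± 2.96 FPKM (SD, n = 2) in Jmjd6-/- stroma, a log2 difference of -1.08 (SE 0.17, limma adjusted p = 0.0504). The log2 difference of Cxcl9 was -1.59 (SE 0.27, limma adjusted p = 0.0530). Xcl1 had a log2 difference of -1.98 (SE 0.49, limma adjusted p = 0.111) from an estimated 8 fragments in WT and 1 in Jmjd6-/- stroma.

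For Ccl22, Ccl5 and Cxcl16 the libraries of the 2 genotypes overlapped. The log2 difference was -0.23 for Ccl22, with a 95% interval from -0.98 to 0.52, and -0.23 for Cxcl16, with an interval from -0.67 to 0.20. Ccl22 and Ccl17 share a receptor and lie 59065 bases apart on chromosome 8. The limma interval of Ccl17, from -2.74 to -1.17, rests on an estimated 15 fragments in WT and 3 in Jmjd6-/- stroma. The counting interval of its ratio of WT to Jmjd6-/- was 1.53 to 29.1, so the limma interval cannot set the 2 genes apart. Whether these 2 genes differed from each other was not tested. For Ccl5 the mean was 28.2 ± 15.2 FPKM (SD, n = 2) in WT and 17.5 ± 0.527 FPKM (SD, n = 2) in Jmjd6-/- stroma, and the log2 difference of -0.58 (limma adjusted p = 0.491) turned on the WT libraries. Without the first WT library the difference was -1.15 (limma adjusted p = 0.0291), and without the second it was -0.00.

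Without RANKL there was 1 library per genotype and no test. All 9 genes were lower in the Jmjd6-/- library, as were 49.1% of all genes tested. For Ccl17 and Xcl1 this was an estimated 2 and 1 fragments in WT against 0 in Jmjd6-/- stroma. Ccl22 and Cxcl9 had an estimated 3 fragments each in the Jmjd6-/- library. That library was also shallower, at an estimated 16100000 fragments against 31700000. The median log2 ratio of the 9 genes was -0.83, from -0.15 for Cxcl16 to -1.53 for Ccl7, and that of all genes was 0. For Ccl19 the log2 ratio was -0.61 without RANKL, and for Ccl2 it was -0.83.

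**Figure D3:**
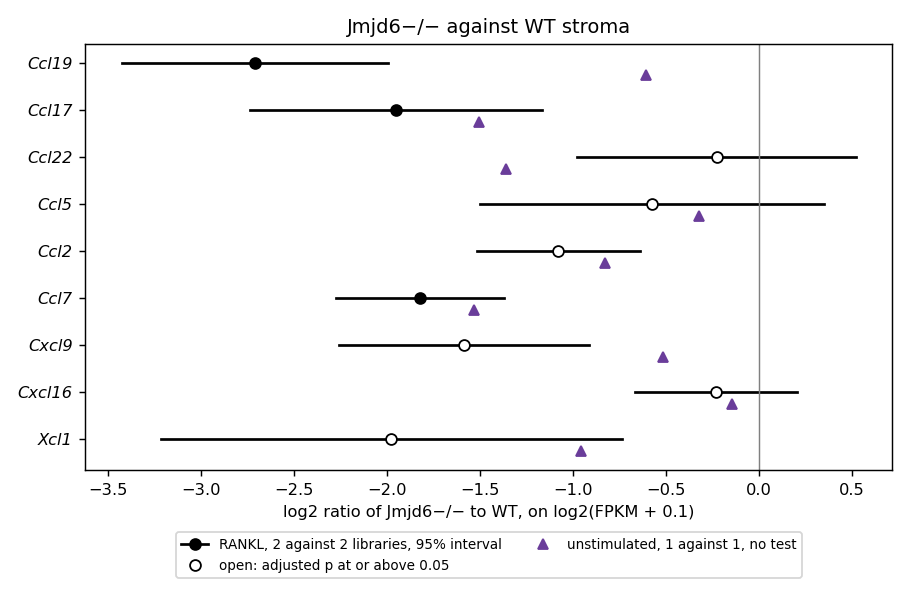
Log2 ratio of Jmjd6-/- to WT stroma (horizontal axis) for each gene under RANKL (circles with 95% limma intervals, filled where the adjusted p was under 0.05) and without RANKL (triangles, 1 library each, no test). Ccl19, Ccl17 and Ccl7 passed under RANKL, and all triangles lie below 0. The triangles of Ccl17 and Xcl1 rest on an estimated 2 and 1 fragments in WT and 0 in Jmjd6-/-.

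The order of the genes by FPKM differed between genotypes. In WT with RANKL, Ccl19 was highest with a mean of 39.8 FPKM. Its libraries lay above those of Ccl2, the next in order, but overlapped those of Ccl5. Ccl2 at 29.3, Ccl5 at 28.2, Cxcl16 at 27.3 and Ccl7 at 26.6 FPKM overlapped with their neighbours in the order. Cxcl9 at 8.14, Ccl22 at 3.64, Ccl17 at 0.959 and Xcl1 at 0.481 FPKM followed, each apart from the next. In Jmjd6-/- stroma with RANKL, Cxcl16 was highest at 23.0 FPKM, then Ccl5 at 17.5 and Ccl2 at 14.0 FPKM. Ccl7 at 7.49 and Ccl19 at 6.03 FPKM overlapped, as did Ccl22 at 3.13 and Cxcl9 at 2.69 FPKM. Without RANKL, Ccl2 was highest in WT and Cxcl16 in Jmjd6-/- stroma. The first step of the study's selection was a range over 3-fold among the 6 values with 0.1 added. It took in 8 of the 9 genes, against 18.5% of all genes tested, and 6 of the 9 with 1 added. Cxcl16 fell outside it with a range of 2.35-fold. The study's second step, a test for association with RANKL treatment or Jmjd6 expression, was not applied.

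Ccl2 and Ccl7 belong to a row of monocyte and eosinophil chemokines on the plus strand of chromosome 11, and the whole row was looked at after its values were seen. Its 5 genes are Ccl2 (chr11:82035577-82037452), Ccl7 (chr11:82045712-82047523), Ccl11 (chr11:82057832-82062955), Ccl12 (chr11:82101845-82103399) and Ccl8 (chr11:82115185-82116799). Ccl8, which attracts monocytes, was at 2.07 FPKM in unstimulated WT, 16.0 and 28.0 FPKM in WT with RANKL, 0.721 FPKM in unstimulated Jmjd6-/- and 3.85 and 3.21 FPKM in Jmjd6-/- with RANKL. The limma log2 difference of Jmjd6-/- from WT under RANKL was -2.56 for Ccl8 (adjusted p = 0.0282), -1.62 for Ccl12 (adjusted p = 0.0280) and -1.20 for Ccl11 (adjusted p = 0.0279). With Ccl7 that made 4 of the 5 genes lower, against 1.82% of all genes, with Ccl2 at an adjusted p of 0.0504. With no filter on low values 1 gene of all those tested was lower. These genes are similar in sequence, so the split of reads between them depends on the authors' multi-read correction.

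Of 32 other chemokine ligands listed, 29 had an entry, and 26 of them were tested. Ccl21a, Ccl21b and Cxcl15 had no entry under those symbols. With RANKL 13 of the 26 were higher and 2 lower by limma, against 10.5% of all genes higher and 4.11% lower, and 21 of the 26 had a positive change. Ccl20, the Ccr6 ligand, had a log2 change of 4.47, and the Cxcr3 ligands Cxcl11 and Cxcl10, relatives of Cxcl9, had changes of 3.86 and 2.57. Under RANKL 5 of the 26 were lower in Jmjd6-/- stroma and 2 higher by limma, against 1.82% of all genes lower and 0.516% higher. Beside Ccl1, Ccl8, Ccl12 and Ccl11, the lower genes held Cxcl13, a B cell attractant, with a log2 difference of -2.26 (limma adjusted p = 0.0279). For the other Cxcr3 ligands the log2 difference was -0.63 for Cxcl10 (limma adjusted p = 0.254) and -1.01 for Cxcl11 (limma adjusted p = 0.137), next to -1.59 for Cxcl9.

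**Figure D4:**
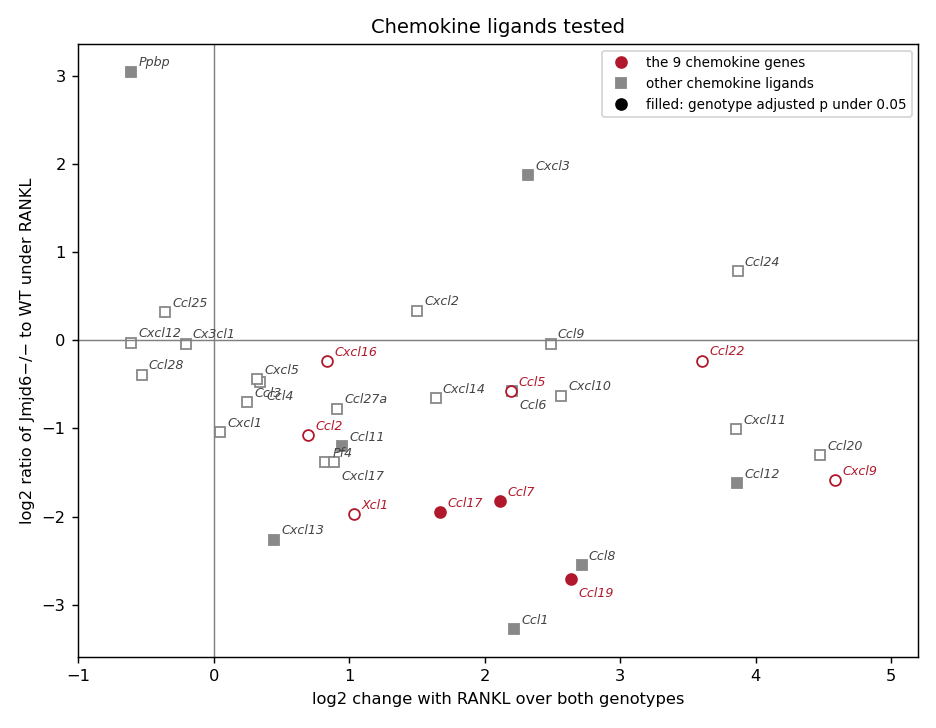
Each tested chemokine ligand by its log2 change with RANKL over both genotypes (horizontal axis) and its genotype difference under RANKL, Jmjd6-/- over WT in log2 units (vertical axis), with the 9 genes in red and other ligands in grey, filled where the genotype adjusted p was under 0.05. The 2 axes share the RANKL libraries, and all 9 genes lie right of 0 and below 0.

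Receptors were sparse. Of the 23 listed, 17 were tested and 5 were higher with RANKL, against 10.5% of all genes. Ccr7, the receptor of Ccl19, was at 0.209 FPKM in unstimulated WT, 3.64 and 4.56 FPKM in WT with RANKL, 0.180 FPKM in unstimulated Jmjd6-/- and 3.73 and 3.96 FPKM in Jmjd6-/- with RANKL. Unlike its ligand, Ccr7 overlapped between the genotypes, with a log2 difference of -0.08 and an interval from -0.65 to 0.49. Ccr4, the receptor of Ccl17 and Ccl22, was at 3.16 and 2.57 FPKM in WT with RANKL and 0.839 and 0.640 FPKM in Jmjd6-/- with RANKL. Ccr4 was the only receptor of the 17 called lower in Jmjd6-/- stroma (log2 difference -1.83, limma adjusted p = 0.0434), against 1.82% of all genes. The receptors for Ccl2, Cxcl9, Cxcl16 and Xcl1, which are Ccr2, Cxcr3, Cxcr6 and Xcr1, stayed at or below 0.256 FPKM in every library.

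Of 16 genes of the NF-κB pathway that RANKL signals through, 8 were higher with RANKL, and 0 were called between genotypes under RANKL by limma. Over all genes tested, 10.5% were higher with RANKL, and 1.82% were lower in Jmjd6-/- stroma under RANKL. Nfkb2, which encodes the non-canonical NF-κB subunit p52, was at 65.6 and 76.1 FPKM in WT with RANKL and 73.0 and 68.1 FPKM in Jmjd6-/- with RANKL. Of 12 interferon signalling genes tested, 6 were higher with RANKL. Irf7, an interferon-inducible transcription factor, was the only gene of that list called lower in Jmjd6-/- stroma, with 117 and 162 FPKM in WT and 40.1 and 30.3 FPKM in Jmjd6-/- with RANKL (log2 difference -1.98, limma adjusted p = 0.0280). Ifng was listed at 0 in both unstimulated libraries and reached at most 0.140 FPKM with RANKL.

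Promoter sequence was at hand for 5 of the 9 genes, from RefSeq on GRCm38.p6, the mm10 build. Each holds 250 bases before and 50 after the start. The κB consensus, the STAT motif GAS (TTCNNNGAA) and the ISRE core (GAAA, any 2 bases, GAAA) were searched on both strands, and 8.46%, 8.3% and 3.44% of 32851 promoters hold them. The κB consensus matched none of the 5. There were 2 matches in these 5 promoters, shown with the motif in capitals.
Ccl17 GAS: ttatctcaaaTTCTTTGAAtttctctagtc
Ccl19 ISRE core: ttttgggacaGAAAGTGAAAgctcaaggca
The Ccl17 match lies at chr8:94810344-94810373 on the plus strand and the Ccl19 match at chr4:42756554-42756583 on the minus strand. A match is a description of the letters and not a measured site.

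Cell type markers moved with genotype, and their part in the chemokine differences was not tested. The summed FPKM of 7 mesenchymal genes was 592.5 in unstimulated WT, 619.5 and 583 in WT with RANKL, 282 in unstimulated Jmjd6-/- and 378 and 361 in Jmjd6-/- with RANKL, a ratio of Jmjd6-/- to WT of 0.475 without and 0.615 with RANKL. Col3a1 and Col1a2 were called lower. For 6 endothelial genes the ratio was 0.373 and 0.361, with Pecam1 and Cdh5 called lower, and for 8 mast cell genes it was 0.465 and 0.247, with 4 of 7 tested called lower. The mast cell sums of Jmjd6-/- stroma were mostly Kit. In unstimulated Jmjd6-/- stroma Kit, at 2.03 FPKM, was the only gene of that list above 0. With RANKL Kit averaged 4.33 FPKM in WT and 4.33 FPKM in Jmjd6-/-, while Mcpt1 averaged 6.47 and 0.119 FPKM. Over all genes tested, 1.82% were called lower in Jmjd6-/- stroma under RANKL. The ratio with RANKL was 0.872 for 12 macrophage genes, of which 0 of 11 tested were called by limma, 1.15 for 10 mTEC genes and 1.09 for 10 cortical epithelial genes, again with 0 calls. Of the sparse lists, 8 dendritic cell genes summed to between 1.92 and 8.28 FPKM with Siglech at 0 throughout. The sum of 9 T cell genes was between 1.11 and 3.68 FPKM, and 8 natural killer and innate lymphoid genes gave between 1.98 and 2.54 FPKM with Ncr1 at 0 throughout. The neutrophil list summed to 2.79 (WT) and 15.4 FPKM (Jmjd6-/-) without RANKL and between 89.4 and 172.5 FPKM with it. The RANKL sums were mostly S100a8, at 98.2 and 141 FPKM in WT and 58.5 and 65.5 FPKM in Jmjd6-/-, with S100a9 next. The ratio of Jmjd6-/- to WT sums was 5.53 without RANKL, from 1 library each, and 0.665 with it. Of 6 genes tested under RANKL, Ltf was called higher in Jmjd6-/- stroma and Ngp and Mpo lower by limma. Whether neutrophils were present was not tested.

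The genes whose pattern over the 6 libraries was most like each chemokine were named by Pearson's r of log2(FPKM + 0.1) among 12586 genes averaging 1 FPKM or more. With 6 points many genes reach a high r, and between 128 (Ccl2) and 406 (Cxcl9) had an r above 0.95. For Ccl19 they were Slc7a7, Gja4 and Apoa4, and for Ccl7 Id3, Hmga1 and Ly6h. For Ccl2 they were Rnf157, Izumo1 and Ccdc28b, and for Cxcl9 Insig1, Mrc1 and Acat2. For Ccl22 they were Kctd7, Ankrd22 and Insm1, for Ccl5 Gadd45g, Mt4 and Src, and for Cxcl16 Trim47, the joint entry of Aars and Exosc6, and Gadd45g. Ccl17 and Xcl1 had means under 1 FPKM and were left out.

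Some of the 9 genes overlap a gene on the other strand: Ccl19 overlaps 4930578G10Rik, Ccl2 overlaps Gm17268, Cxcl16 overlaps Zmynd15 and Xcl1 overlaps Gm20743. The authors used a stranded setting, while no strand-keeping step is named for the kit they describe. Reads of such pairs may not have been told apart.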

How the data were processed

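Poly-A RNA from 6 FTOC libraries had been sequenced in paired-end mode, mapped to mm10 with TopHat2 2.0.10 and summarised by the authors as FPKM per gene with Cufflinks 2.1.1, with multi-read correction and a stranded library type. The deposited FPKM values were used as they were. Genotype, stimulation and replicate came from the labels, whose treatment field gives RANKL for all samples while titles and the stimulation field separate the unstimulated ones.

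Values were tested with limma 3.58.1 in R 4.3.3 on log2(FPKM + 0.1), with the trend option. The 15894 genes that averaged 0.1 FPKM or more entered, all 9 chemokine genes among them, and p-values were adjusted by Benjamini-Hochberg. The RANKL term was fitted together with a genotype term. Other comparisons were contrasts between 4 group means. On simulated data, 95 of 100 genes changed by 3 on the log2 scale with RANKL were recovered among 100 called of 15666 genes, and 76 of 100 for genotype among 77 called. The changes were put only in genes of higher mean level, and no counting error was added. The largest genotype difference of the 9 genes under RANKL was smaller, at -2.71 for Ccl19. Recovery of smaller changes or of low genes was not measured.

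Fragments were estimated from low FPKM steps (below 0.15 FPKM) and transcript length less 150 bases. Only between 39.5% and 49.1% of those values came within 0.15 of a whole number, so no count test was run. Intervals and fragment estimates cover counting error only.

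Named were the 9 genes, other ligands and receptors past the threshold that averaged 1 FPKM or more (up to 8 per list and comparison), receptors of the 9 genes (1 item is not reported here), up to 4 genes of each signalling and marker list, and the 3 genes most alike. Col3a1, Col1a2, Pecam1, Cdh5, Ccl1, Irf7, Mpo, Siglech, Ncr1, Cxcl1, Cxcl2, Cxcl5, Cxcr4, Ackr3 and Ackr4 were named for their calls, levels or zeros after their values were seen. Ccl21a, Ccl21b, Ccl21c and Cxcl15 were named for a missing entry or zeros. The members and lists were chosen with earlier results of these data known. Alternatives were other constants, filters, scalings, no trend, a replicate block, the 4 RANKL libraries alone and leaving out each RANKL library. A fit without the filter that left out genes at 0 in all libraries was added after seeing the data.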

Additional observations from a re-analysis of the deposited data

How the results depend on the processing

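The 9 genes kept their direction with RANKL over both genotypes in every alternative run. With no filter on low values, 4 of the 9 were called higher with RANKL, in place of 8, and leaving out each RANKL library in turn gave between 6 and 8. Within WT the count of 5 fell to 0 with no filter and to 3 when genes at 0 in all libraries were also left out (a choice made after seeing the data), with 5 to 7 on leaving out a library. Within Jmjd6-/- stroma the count of 3 became 0 and 1 under the same 2 settings and 3 to 6 on leaving out a library, with 5 without the first and 6 without the second WT RANKL library. The count of 3 lower in Jmjd6-/- under RANKL became 0 under both settings without the filter, 5 with the 4 RANKL libraries only and between 1 and 4 on leaving out a library, with 1 without the second Jmjd6-/- library.

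With the replicate number as a block that count was 6. The numbers do not pair the samples (r of same-numbered deviations -0.0778, 2 pairs), so they share only a number. Ccl19 was past the threshold in 12 of 14 alternatives (adjusted p 0.195 with no filter), Ccl7 in 11 of 14 and Ccl17 in 8 of 13.

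Values that changed sign were all outside the threshold. On leaving out a library, Ccl22 between genotypes ranged from -0.53 to 0.074 (without the first Jmjd6-/- library), and the difference of response ranged from -0.83 to 0.32 for Ccl5 and from -0.29 to 0.12 for Cxcl16 (both highest without the second WT library). For Ccl17 that difference was 1.87 with a constant of 0.01. Over all genes, the 290 lower and 82 higher in Jmjd6-/- stroma ranged from 0 to 1836 and from 0 to 2428, both lowest without the filter and highest without the first WT library, and were 1077 and 382 with the block. The 1675 higher and 654 lower with RANKL fell to 788 and 299 with no filter, and the lower ones ranged from 166 to 1499 on leaving out a library. Within WT the 962 higher ranged from 110 to 2702 and the 89 lower from 19 to 2806, and within Jmjd6-/- stroma the 596 higher ranged from 17 to 1623 and the 55 lower from 10 to 903. The 0 calls for the difference of response became 93 higher and 83 lower with no filter. The cause of these moves was not tested.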

Other observations

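Of the neutrophil-attracting chemokines outside the 9 genes, Ppbp and Cxcl3 went the other way between genotypes, while Cxcl1, Cxcl2 and Cxcl5 did not. Ppbp, a platelet chemokine, was at 0.96 FPKM in unstimulated WT, 0.66 and 0.63 FPKM in WT with RANKL, 10.03 FPKM in unstimulated Jmjd6-/- and 5.72 and 6.45 FPKM in Jmjd6-/- with RANKL, a log2 difference under RANKL of 3.05 (limma adjusted p = 0.0209). Cxcl3 was at 0.88 FPKM in unstimulated WT, 3.32 and 4.31 FPKM in WT with RANKL, 2.16 FPKM in unstimulated Jmjd6-/- and 13.4 and 14.8 FPKM in Jmjd6-/- with RANKL, a log2 difference of 1.87 (limma adjusted p = 0.0280). Under RANKL the libraries of the genotypes did not overlap for either gene. Cxcl1 was lower in Jmjd6-/- stroma, at 6.62 FPKM in unstimulated WT against 1.62 in unstimulated Jmjd6-/-. With RANKL it was at 4.70 and 5.21 FPKM in WT and 2.31 and 2.38 FPKM in Jmjd6-/-. For Cxcl2 and Cxcl5 the libraries of the genotypes overlapped under RANKL.

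Among the chemokine ligands with an entry, chemokines that draw progenitors into the thymus were the most abundant. Ccl21a and Ccl21b had no entry and could not be ranked, and Ccl21c was listed at 0 in all 6 libraries. Ccl25 was between 1748 and 2929 FPKM in the 6 libraries and Cxcl12 between 672 and 1110 FPKM. Cxcl12 fell by 0.61 on the log2 scale with RANKL (limma adjusted p = 0.00868). Its log2 difference between genotypes under RANKL was -0.02, with a 95% interval from -0.35 to 0.30.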
